A study of Mus musculus with 44 samples.

Results

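The control inner cell masses (ICMs) of the *Pou5f1* and the *Sox2* mouse line were compared at every ATAC-seq peak, which left 16 of the 44 libraries of the series. They were chosen by their labels: early ICM (E3.75) and late ICM (E4.5) Ctrl libraries, 4 for each line and stage, or 8 per line. The ICM is the group of cells inside the blastocyst that gives rise to the embryo proper, and ATAC-seq reads its open chromatin from the sites where the Tn5 transposase cuts. *Pou5f1* Ctrl embryos came from *Pou5f1* flox/flox; Zp3-Cre mothers and *Pou5f1* +/mKO2 fathers, and *Sox2* Ctrl embryos from *Sox2* flox/flox; Zp3-Cre mothers and *Sox2* +/EGFP fathers. Zp3-Cre acts in the growing oocyte, so the egg carried a deleted copy of the floxed gene, and the embryos without fluorescence, which had an intact copy from the father, were taken as Ctrl. Each control thus had 1 deleted and 1 working copy of its own line's gene and both copies of the other gene, and neither was wildtype. The label gives B6C3F1 as the background of both lines, embryos were cultured with 1 µM of the MEK inhibitor PD0325901, and each library was a pool of ICMs isolated by immunosurgery. The comparison asks how far the 2 sets of controls stood apart. Gene dosage, line background and the batches in which each line was collected cannot be told apart in this design, and no batch was labelled.

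Oct4, the POU-domain factor encoded by *Pou5f1*, and the HMG-box factor Sox2 keep the pluripotent state of the ICM and the epiblast. They often bind side by side on a composite element, made of an octamer part that Oct4 reads and a shorter part that Sox2 reads. Both can also bind their own element alone, and both act on enhancers of the other and of themselves.

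Accessibility is given as rlog values, a log2 scale on which a difference of 1 is a doubling, in windows of 200 bp, and the sequencing depth behind the values is unknown. Differences are those of the *Sox2* line minus the *Pou5f1* line, and limma called a peak where its adjusted p fell below 0.05. Pearson correlations between libraries of a condition, over peaks, ran from 0.786 to 0.908, and the lowest belonged to the *Sox2* Ctrl early ICM library of replicate 4. The median rlog of the 16 libraries lay between 2.44 and 2.59. Peaks within 10 kb of start sites of 7 epiblast marker genes had mean levels of 3.95 ± 0.13 and 3.70 ± 0.16 (SD, n = 4) in early ICMs of the *Pou5f1* and *Sox2* line and of 4.06 ± 0.16 and 4.14 ± 0.09 in late ICMs. The corresponding levels were 2.99 ± 0.14 to 3.24 ± 0.11 for 6 primitive endoderm markers and 3.19 ± 0.28 to 3.40 ± 0.06 for 7 trophectoderm markers over the same conditions, so peaks of the epiblast list were the most open. Of 56, 23 and 56 peaks near these markers, 2, 1 and 1 were called between the lines (3.57%, 4.35% and 1.79%, against 4.52% of all peaks). The 2 called epiblast peaks lay in the parts of *Pou5f1* and *Sox2* that Cre removes, whose copy number differs between the controls by design. A share of other cells and a change within the cells cannot be told apart in pooled ICMs.

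The lines stood apart over the whole set of 152393 peaks. The distance between their mean profiles, divided by the spread of libraries within a line and stage, was 0.757, against a median of 0.488 when libraries were relabelled within stages (exact permutation test, two-sided, p = 0.000408, the smallest that 4900 relabellings can give). With the stage as a block, 6895 peaks, or 4.52% of those tested, were called, 2942 of them higher and 3953 lower in the *Sox2* line. After quantile normalization these were 3338 higher and 3496 lower. In early ICMs 1375 peaks (0.902%) were called, 483 higher (0.317%) and 892 lower (0.585%), and in late ICMs 2059 (1.35%), 1065 higher (0.699%) and 994 lower (0.652%). These counts moved when single libraries were left out, in fits with fewer libraries. They fell to as few as 628 in early ICMs, without *Pou5f1* Ctrl early replicate 3, and 703 in late ICMs, without *Pou5f1* Ctrl late replicate 3. A replicate block raised late calls to 5606 and those at both stages to 370. At no peak did the line difference change between stages past an adjusted p of 0.05 in limma, although 10498 peaks had an unadjusted p under 0.05 and the smallest adjusted p was 0.0502. Without *Sox2* Ctrl early replicate 4 or *Pou5f1* Ctrl late replicate 1, 34 and 24 peaks were called for such a change, and 1 without chromosome X. The mean level of chromosome X peaks differed by -0.01 between the lines (exact permutation p = 0.866). Called peaks were spread over every chromosome analysed, at 3.65% to 5.59% of the peaks of each. For peaks called at both stages these shares ran from 0.0777% on chromosome 17 to 0.317% on chromosome 12.

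The targeted genes were read first. A peak 480 bp upstream of the *Sox2* start site (chr3:34649826-34650025, in an intron of the overlapping transcript *Sox2ot*) lies in the part that Cre removes from the floxed *Sox2* allele. It is shown because its copy number differs between the controls by design, and it held none of the OCT, SOX or OCT-SOX words described later (RefSeq GRCm38, plus strand, no base in capitals):
Sox2 upstream window: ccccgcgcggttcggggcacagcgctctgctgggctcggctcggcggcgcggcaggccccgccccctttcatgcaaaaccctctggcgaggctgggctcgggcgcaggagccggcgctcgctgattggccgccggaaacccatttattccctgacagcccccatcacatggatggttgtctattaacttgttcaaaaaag
In *Pou5f1* Ctrl libraries its rlog values were 3.65, 4.22, 4.46 and 4.03 in early and 4.52, 4.43, 4.55 and 4.41 in late ICMs. In *Sox2* Ctrl libraries they were 2.74, 2.11, 2.62 and 1.96 in early and 2.35, 3.14, 3.13 and 3.28 in late ICMs. Every *Sox2* Ctrl library lay below every *Pou5f1* Ctrl library. The difference was -1.62 ± 0.27 (SE; adjusted p = 2.81e-05), and it was called in early (-1.73, adjusted p = 0.00863) and late ICMs (-1.50, adjusted p = 0.0232). In *Sox2*-KO libraries, with no intact copy, the means fell to 0.81 ± 0.27 and 0.72 ± 0.24 (SD, n = 4), while *Pou5f1*-KO libraries lay between 3.47 and 4.38 in early and between 2.93 and 3.71 in late ICMs.

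Other peaks around *Sox2* did not follow this order. The peak in the *Sox2* coding exon (chr3:34650925-34651124), which the deletion also covers, differed by 0.12 ± 0.31 (adjusted p = 0.889), with *Pou5f1* Ctrl libraries from 1.39 to 4.19 and *Sox2* Ctrl libraries from 1.95 to 3.81. In *Sox2*-KO libraries it still had means of 2.10 ± 0.46 and 1.82 ± 0.82 (SD, n = 4). The downstream enhancer that holds an OCT-SOX word (chr3:34653965-34654164) had a mean of 3.87 in both lines and a difference of 0.00 ± 0.27. Of the 6 peaks within 10 kb of *Sox2*, the upstream peak alone was called.

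In *Pou5f1*, the floxed part runs from the second exon to the last, and 1 peak lay in it, over the third exon (chr17:35509358-35509557). Its values in *Pou5f1* Ctrl libraries were 2.76, 2.14, 1.42 and 3.01 in early and 2.44, 2.99, 3.00 and 2.04 in late ICMs. In *Sox2* Ctrl libraries they were 4.29, 3.14, 3.13 and 2.55 in early and 4.38, 4.24, 3.57 and 4.45 in late ICMs. The peak was higher in the *Sox2* line by 1.24 ± 0.30 (adjusted p = 0.00563), which was called in late (1.54, adjusted p = 0.0403) and not in early ICMs (0.94, adjusted p = 0.32), where the lines overlapped. Of the 3 peaks in the deleted parts, the *Sox2* coding-exon peak was not called between the controls, and the *Pou5f1* peak was not called in early ICMs. In *Pou5f1*-KO libraries the exonic peak had means of 1.86 ± 0.92 and 2.60 ± 0.59 (SD, n = 4). The paper's methods place cassettes of the paternal mKO2 allele upstream of the gene and in its first intron. They do not state that this allele lacks the third exon, so the number of copies in *Pou5f1*-KO embryos is unknown here. The upstream enhancer of *Pou5f1*, 2001 bp before the start site, was the most open of these peaks and differed by 0.11 ± 0.14 (adjusted p = 0.75). A peak 6249 bp upstream was called in late ICMs (1.63, adjusted p = 0.0291) and not in early ones (0.16, adjusted p = 0.922). Of the peaks within 1 Mb of *Sox2* and *Pou5f1*, 5.17% of 116 and 4.31% of 348 were called with the stage as a block, against 4.52% of all peaks. Most were lower in the *Sox2* line, with 0 higher and 6 lower around *Sox2* and 2 higher and 13 lower around *Pou5f1*, where 1.93% of all peaks were higher and 2.59% lower.

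**Figure D1:**
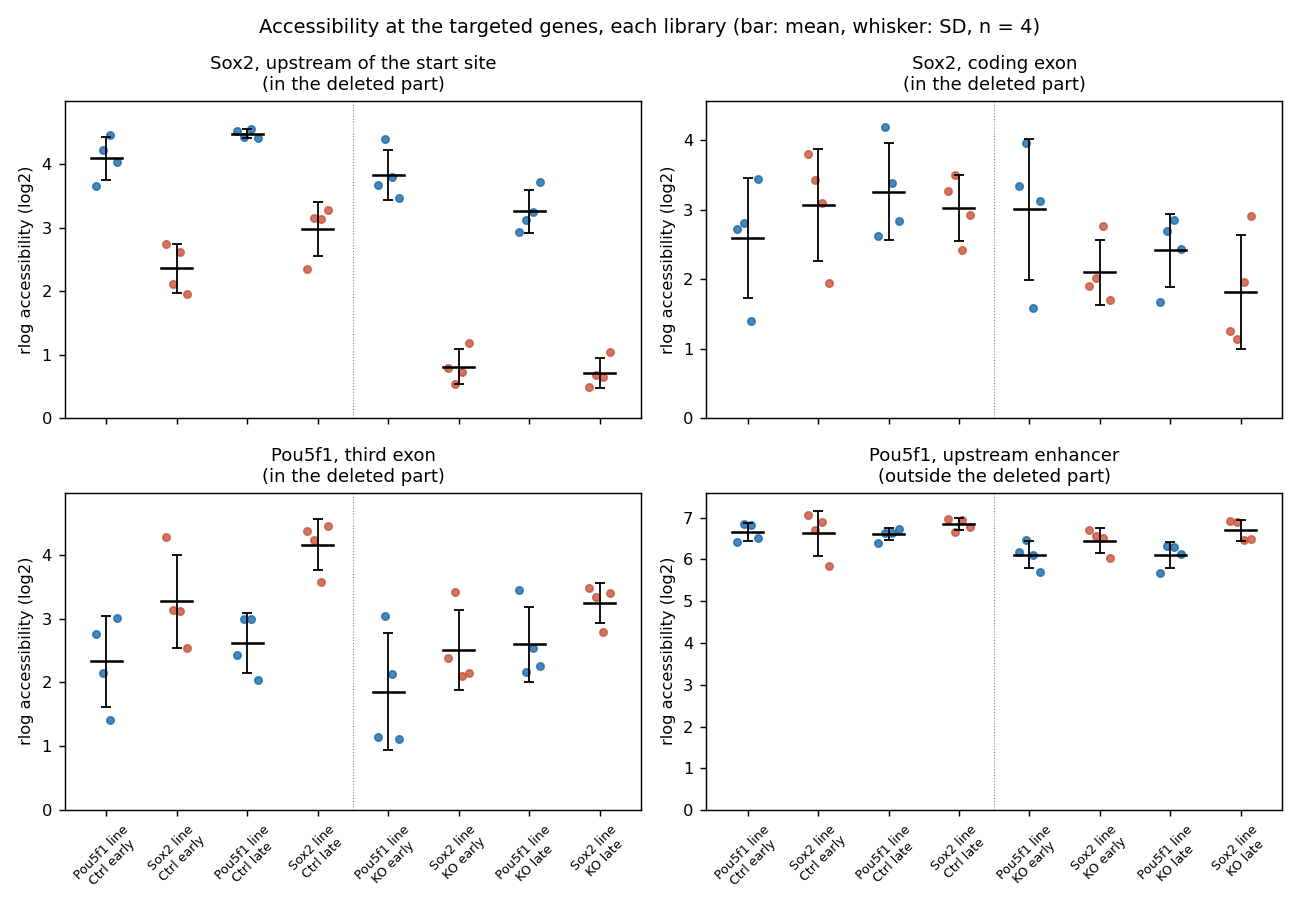
Accessibility (rlog, log2 scale) in every ICM library at 4 peaks of the targeted genes, with blue points for the *Pou5f1* line, red points for the *Sox2* line, bars for means and whiskers for the SD of 4 libraries. At the *Sox2* upstream peak the *Sox2* Ctrl libraries (1.96 to 3.28) lie between the *Pou5f1* Ctrl libraries (3.65 to 4.55) and the *Sox2*-KO libraries, and at the *Pou5f1* upstream enhancer the control lines differ by 0.11.

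Peaks were then sought that differed at both stages. In all, 234 peaks (0.154%) were called in early and late ICMs in the same direction, 112 of them higher (0.0735%) and 122 lower (0.0801%) in the *Sox2* line, and no peak was called in opposite directions by limma (12 of the early calls were opposite in late ICMs at an unadjusted p under 0.05). After quantile normalization 138 were higher and 104 lower, so the balance of the directions turned with the scaling. The 2 stages shared no library. Of 1375 peaks called in early ICMs, 1219 (88.7%) had the same sign in late ICMs, where 59.5% of all peaks kept their sign, and 17.0% were called there, against 1.35% of all peaks. Of the 234 peaks, 143 (0.0938% of all peaks) had no overlap between the 8 libraries of each line. Over all peaks, 0.397% had none, 0.193% with the *Sox2* line above and 0.204% with it below. The count of 234 peaks called at both stages fell to between 126 and 155 when *Pou5f1* Ctrl early replicate 2 or 3, *Pou5f1* Ctrl late replicate 3 or 4, *Sox2* Ctrl early replicate 2 or *Sox2* Ctrl late replicate 2 or 4 was left out.

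Among those that did not overlap, a peak 126 bp upstream of the coding gene *5730507C01Rik* (chr12:18514285-18514484) had the largest rise. It was at 0.91, 0.75, 0.90 and 3.04 in early and 0.97, 2.76, 1.17 and 1.48 in late *Pou5f1* Ctrl libraries. The *Sox2* Ctrl libraries were at 4.62, 4.56, 3.66 and 3.72 in early and 4.95, 4.69, 4.37 and 5.01 in late ICMs. The early *Pou5f1* library of replicate 4 came closest to them, and the difference was 2.95 ± 0.31 (adjusted p = 1.95e-10). It was not alone on this part of chromosome 12. The windows chr12:22906406-22906605 and chr12:23001545-23001744 were also called higher at both stages (2.68 and 3.12), with overlap between the lines. The window chr12:19185612-19185811 was called lower at both stages (-1.41).

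A peak in an intron of *Ddr2*, which encodes a collagen receptor kinase (chr1:170079537-170079736), had the smallest adjusted p of the named peaks. *Pou5f1* Ctrl libraries were at 2.89, 3.77, 2.16 and 4.56 in early and 3.17, 4.34, 4.05 and 4.15 in late ICMs, and *Sox2* Ctrl libraries at 6.25, 6.17, 5.94 and 6.47 and at 6.07, 5.71, 6.35 and 6.38. The lowest *Sox2* Ctrl library lay above the highest *Pou5f1* Ctrl library, with a difference of 2.53 ± 0.23 (adjusted p = 1.12e-13). A peak in the long noncoding gene *D830044D21Rik* (chr14:31918483-31918682) was higher by 2.64 ± 0.30 (adjusted p = 1.37e-09), from 0.87 to 2.18 in *Pou5f1* Ctrl and from 3.03 to 4.99 in *Sox2* Ctrl libraries.

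The other 9 of the 12 largest rises were between 2.32 and 2.51. Among them were peaks in introns of *Pign*, which acts in the making of membrane anchors, *Cd84*, a receptor of immune cells, *Btbd9*, *Trim55*, a muscle protein, and *Map3k7*, the kinase TAK1, and peaks between genes, with *Stc2*, the transcription factor gene *Trp63* and *Penk*, the precursor of enkephalins, having the nearest coding start sites. Those at *Stc2*, *Trp63* and *Penk* were 40860, 74729 and 198988 bp away, so the gene is given as a position only.

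The largest fall was at a site between genes on chromosome 8, 388969 bp from the start site of *Frg1* (chr8:41805944-41806143). It was at 5.24, 2.40, 3.89 and 3.08 in early and 5.41, 4.20, 3.92 and 3.89 in late *Pou5f1* Ctrl libraries. All 8 *Sox2* Ctrl libraries were between 1.05 and 1.73, and the difference was -2.64 ± 0.33 (adjusted p = 2.1e-08). A peak 1329 bp upstream of *Syde2*, which encodes a GTPase-activating protein (chr3:145986442-145986641), was at 4.77 to 5.64 in *Pou5f1* Ctrl and 1.26 to 4.30 in *Sox2* Ctrl libraries, lower by a log2 difference of -2.30 ± 0.26 (adjusted p = 1.54e-09).

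A peak 16190 bp downstream of the start of *Gadd45g*, a stress-response gene (chr13:51862835-51863034), stood at 5.26 ± 0.38 and 5.35 ± 0.19 (SD, n = 4) in early and late *Pou5f1* Ctrl ICMs. In the *Sox2* Ctrl it was at 2.59 ± 0.79 and 3.99 ± 1.10, and the difference was -2.01 ± 0.27 (adjusted p = 1.23e-07). The other 9 of the 12 largest falls were between -2.50 and -2.05. They lay in introns of *1700025G04Rik*, *Zc3h7b*, *Nudcd2*, *Kcnip4*, which encodes a subunit partner of potassium channels, and *Gm20388*, and between genes nearest to *Klhl25*, *Sema3a*, an axon guidance gene, *Tcf7l2*, a Wnt effector, and *Btg1*. The peak in *Gm20388* had *Piezo1*, a mechanosensitive channel gene, as its nearest coding start site.

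The maternal-zygotic KO libraries of the same lines gave a reading in embryos not used for these calls, but from the same crosses. *Sox2*-KO and *Pou5f1*-KO ICMs lacked different factors, so their contrast also holds the difference between the knockouts. That difference cannot be separated here from the difference between the lines. Same-numbered Ctrl and KO libraries of a line and stage deviated from their group means together in part (r over peaks -0.02 to 0.29, the highest for *Sox2* early replicate 4), and in 11 of 16 cases more than with any other number, so the Ctrl and KO readings were not shown to be independent. Between *Sox2*-KO and *Pou5f1*-KO ICMs, with the stage as a block, 28894 peaks (19%) were called, 15362 of them higher (10.1%) and 13532 lower (8.88%) in the *Sox2* line. All 112 peaks higher in the *Sox2* line Ctrl at both stages had the same sign between the KO libraries, and 102 (91.1%) were called in it. Of the 122 lower peaks, 119 had the same sign and 94 (77.0%) were called. None was called in the opposite direction, and none was opposite at an unadjusted p under 0.05. The median difference was 1.86 in Ctrl and 2.01 in KO libraries for the higher peaks, and -1.73 and -1.43 for the lower ones.

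Some loci stood apart in KO. The *Kcnip4* intron peak was lower by 2.06 ± 0.33 in *Sox2* Ctrl on the log2 scale and differed by -0.18 between the KO libraries (adjusted p = 0.743). The *Tcf7l2* and *Penk* peaks were also not called there (-0.53, adjusted p = 0.296, and 0.61, adjusted p = 0.117). The *Ddr2* peak kept a difference of 2.12 (adjusted p = 2.13e-09), with *Sox2*-KO libraries at 5.84 ± 0.28 and 5.69 ± 0.42 (SD, n = 4).

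**Figure D2:**
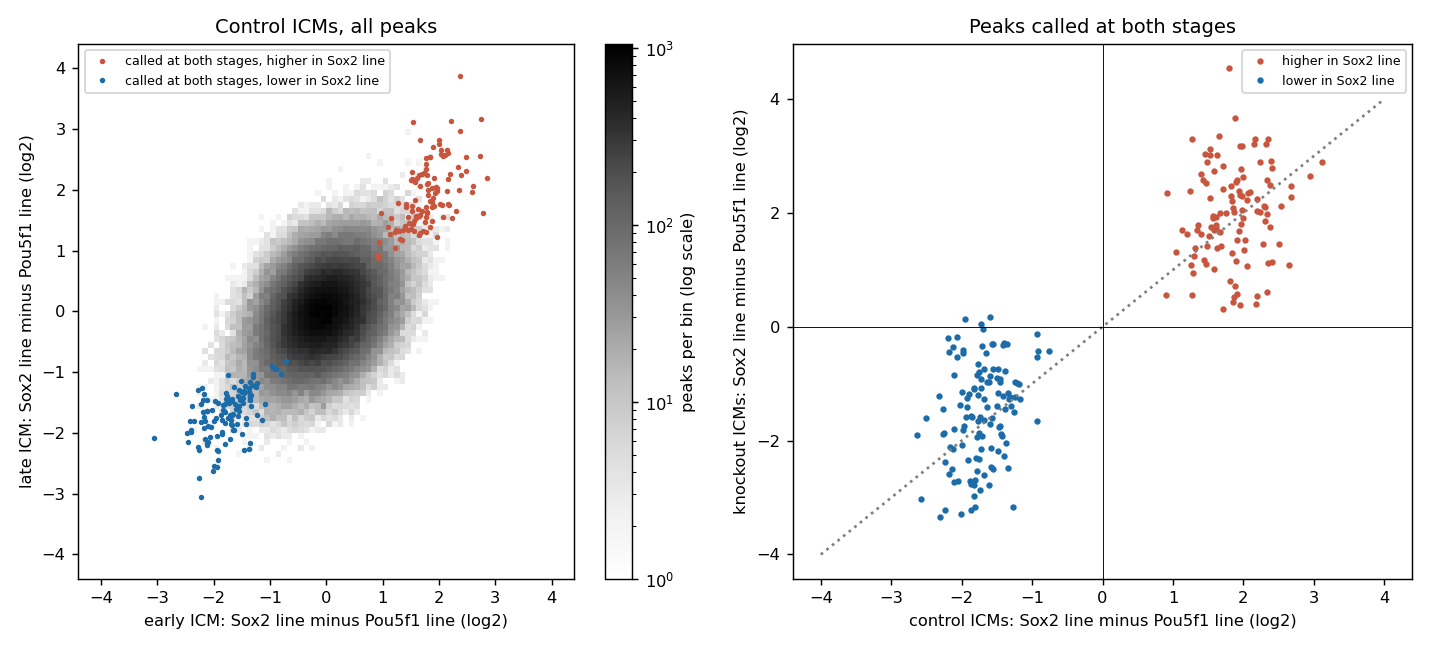
Left, line difference (*Sox2* line minus *Pou5f1* line, log2) in early against late control ICMs for all peaks as counts per bin, with the 112 peaks called higher at both stages in red and the 122 called lower in blue. Right, the same coloured peaks with the difference in control ICMs on the x axis and in KO ICMs on the y axis, where 231 of 234 have the same sign and the dotted line marks equal differences.

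The peaks were next grouped by short sequence words, searched on both strands of each window. The OCT word ATGCAAAT was in 2.39% of all windows, the SOX word CATTGT in 10.9% and the composite OCT-SOX word TTGTNATGC in 0.817%. Of the 1245 windows with the composite word, 65 also held the OCT and 338 the SOX word. The examples below are the named peaks with an OCT word (higher in the *Sox2* line at both stages), peaks with a SOX word in each direction (the largest fall, with 3 words, and the rise in *D830044D21Rik*) and the enhancers of *Pou5f1* and *Sox2* with a composite word (no difference called). They are read from the RefSeq copy of GRCm38, plus strand, with the words of each class in capitals, ATTTGCAT, ACAATG and GCATAACAA being matches on the minus strand:
OCT, 198988 bp from Penk, chr4:4337708-4337907: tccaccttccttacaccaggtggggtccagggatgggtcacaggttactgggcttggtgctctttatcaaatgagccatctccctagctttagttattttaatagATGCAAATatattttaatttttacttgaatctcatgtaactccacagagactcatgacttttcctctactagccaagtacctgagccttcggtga
OCT, 46516 bp from Stt3b, chr9:115356838-115357037: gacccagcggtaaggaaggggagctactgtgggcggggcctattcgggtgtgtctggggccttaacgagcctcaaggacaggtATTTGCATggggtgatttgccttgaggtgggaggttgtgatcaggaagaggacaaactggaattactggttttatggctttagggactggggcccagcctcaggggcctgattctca
SOX, 388969 bp from Frg1, chr8:41805944-41806143: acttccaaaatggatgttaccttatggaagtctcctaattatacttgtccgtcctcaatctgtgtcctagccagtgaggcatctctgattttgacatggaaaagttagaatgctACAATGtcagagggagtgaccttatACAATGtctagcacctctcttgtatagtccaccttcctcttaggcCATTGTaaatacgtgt
SOX, higher, in D830044D21Rik, chr14:31918483-31918682: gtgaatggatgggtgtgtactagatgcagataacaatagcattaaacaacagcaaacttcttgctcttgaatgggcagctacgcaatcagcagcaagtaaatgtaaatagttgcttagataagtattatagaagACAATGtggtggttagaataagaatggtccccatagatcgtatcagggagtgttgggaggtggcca
OCT-SOX, upstream enhancer of Pou5f1, chr17:35503918-35504117: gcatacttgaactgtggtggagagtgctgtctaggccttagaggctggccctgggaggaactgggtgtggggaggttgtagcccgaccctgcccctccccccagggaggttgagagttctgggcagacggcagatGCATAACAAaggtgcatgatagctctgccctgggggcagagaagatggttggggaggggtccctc
OCT-SOX, downstream enhancer of Sox2, chr3:34653965-34654164: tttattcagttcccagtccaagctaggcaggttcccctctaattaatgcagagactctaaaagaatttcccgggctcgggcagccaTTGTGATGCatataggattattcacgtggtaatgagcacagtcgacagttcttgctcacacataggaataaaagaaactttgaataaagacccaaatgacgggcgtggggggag

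Windows with the OCT word leaned toward the *Sox2* line and windows with the SOX word toward the *Pou5f1* line. Of 3639 OCT-word peaks, 276 (7.58%) were called higher and 69 (1.90%) lower in the *Sox2* line, where 1.93% and 2.59% of all peaks were. Of 16542 SOX-word peaks, 362 (2.19%) were called higher and 857 (5.18%) lower, and of the 1147 with 2 or more SOX words, 16 (1.39%) and 111 (9.68%). Of 1245 peaks with the composite word, 38 (3.05%) were called higher and 36 (2.89%) lower. Without the windows that held both words, the shares were 7.58% higher and 1.93% lower for the OCT word and 2.06% and 5.26% for the SOX word. The 367 windows with both were called higher in 7.63% and lower in 1.63%.

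The median differences were small beside the spread of single peaks. They were 0.16 for OCT-word peaks, -0.07 for SOX-word peaks, -0.02 for composite peaks and -0.02 for all peaks. By stage, OCT-word peaks were at 0.16 in early and 0.14 in late ICMs, and SOX-word peaks at -0.10 and -0.04. Centring the libraries within bins of GC content left 7.20% of OCT-word peaks called higher and 1.84% lower, and 2.21% of SOX-word peaks higher and 5.20% lower. Neither word was in most of the called peaks: 9.38% of the peaks higher in the *Sox2* line held the OCT word and 21.7% of those lower held the SOX word. Of the 112 higher and 122 lower peaks called at both stages, the OCT word was in 8 (7.14%) and 2 (1.64%), against 2.39% of all peaks. The SOX word was in 22 (19.6%) and 33 (27.0%), above the 10.9% of all peaks in both directions.

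The same lean was seen library by library. The mean rlog of peaks with an OCT but no SOX word, less the mean of all peaks in that library, was between -0.23 and -0.11 in early and between -0.16 and -0.05 in late *Pou5f1* Ctrl ICMs. In *Sox2* Ctrl ICMs it was between -0.04 and 0.16 and between 0.01 and 0.12, above every *Pou5f1* Ctrl library. In *Pou5f1*-KO ICMs it was -0.66 ± 0.07 and -0.74 ± 0.04 (SD, n = 4), and in *Sox2*-KO ICMs, below the *Sox2* Ctrl means, -0.08 ± 0.08 and -0.06 ± 0.07. Peaks with a SOX but no OCT word were at 0.09 ± 0.04 and 0.08 ± 0.04 in *Pou5f1* Ctrl, at 0.01 ± 0.03 and 0.04 ± 0.04 in *Sox2* Ctrl and at -0.15 ± 0.02 and -0.10 ± 0.05 in *Sox2*-KO ICMs. In *Pou5f1*-KO ICMs they were at 0.06 ± 0.08 and 0.01 ± 0.01, the late mean being below both late Ctrl means, and the control lines overlapped in late ICMs. Composite peaks were at 0.24 ± 0.14 and 0.37 ± 0.07 in *Pou5f1* Ctrl and 0.21 ± 0.07 and 0.40 ± 0.04 in *Sox2* Ctrl, and between -0.72 ± 0.06 and -0.58 ± 0.12 in the KO ICMs of both lines. For the composite word the controls differed by less than the spread between libraries.

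Words of other factors leaned too. GATA words (AGATAA, read by endoderm factors) were in 26599 peaks, of which 3.29% were called higher and 1.93% lower in the *Sox2* line, and TEAD words (ACATTCC, the DNA side of Hippo signalling) in 11482, with 3.40% and 2.22%. ESRRB words (TCAAGGTCA, a naive pluripotency factor) leaned the other way, with 1.94% of 5160 higher and 4.21% lower, as did TFAP2 words (GCCNNNGGC, trophectoderm factors), with 1.20% of 16759 higher and 3.87% lower, which became 1.37% and 3.17% after centring within bins of GC content. By library, TFAP2-word peaks were at 0.42 to 0.53 above all peaks in late *Pou5f1* Ctrl and at 0.29 to 0.35 in late *Sox2* Ctrl ICMs, without overlap and farther apart than the SOX-word peaks, and in early ICMs the lines overlapped (0.45 ± 0.06 and 0.37 ± 0.11, SD, n = 4). GATA-word peaks were at -0.06 ± 0.07 and 0.01 ± 0.10 in early and at -0.25 ± 0.05 and -0.16 ± 0.03 in late *Pou5f1* and *Sox2* Ctrl ICMs. TEAD-word peaks were at 0.07 ± 0.07 and 0.19 ± 0.08 in early and at 0.11 ± 0.05 and 0.15 ± 0.12 in late ICMs, and ESRRB-word peaks at 0.30 ± 0.07 and 0.26 ± 0.12 and at 0.27 ± 0.13 and 0.17 ± 0.15. For these 3 words the libraries of the lines overlapped at both stages. KLF, CTCF and AP-1 words were called higher in 1.84%, 1.35% and 2.50% and lower in 1.96%, 2.12% and 1.98% of their peaks. A match of letters is a description and not a bound site.

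**Figure D3:**
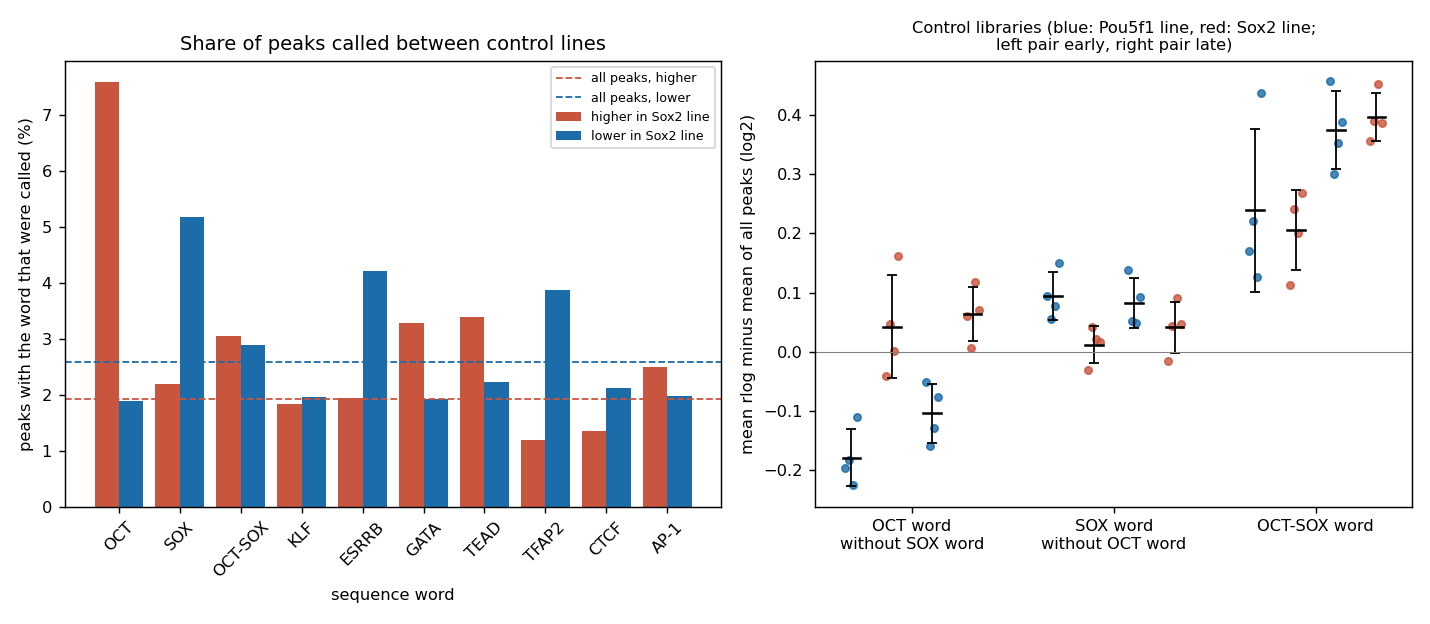
Left, percent of peaks with each word that were called higher (red) or lower (blue) in the *Sox2* line control ICMs, with dashed lines for all peaks (1.93% and 2.59%). The OCT word has the tallest red bar (7.58%) and the SOX word the tallest blue bar (5.18%). Right, mean rlog of peaks with a word minus the mean of all peaks in each control library (bar, mean; whisker, SD of 4 libraries), early pair left and late pair right.

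Windows with several called peaks were then picked. Of 1976 windows of 1 Mb with at least 15 peaks, 6 held 3 or more peaks called at both stages, where 0.154% of all peaks were called at both and 4.52% with the stage as a block. The windows were chosen by these counts, so the counts describe them and test nothing. In one of them, upstream of *Usp44*, which encodes a ubiquitin protease, all 6 peaks in a stretch of 4.64 kb (chr10:93791157-93795794) were called higher, by 1.05 to 2.31, and all 6 were called higher between the KO libraries. Others were on chromosome 12, where 18 of 43 peaks (41.9%) were called with the stage as a block in a stretch with 1 coding gene, on chromosome 8, on chromosome 9 around *Stt3b*, with 3 of 88 called at both stages and all of them higher, and on chromosome 1 around *Cd84*, with 3 of 161.

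The window on chromosome 8 held a pattern within 1 gene, *Wwc2* (chr8:47823959-47990924, minus strand), which encodes a member of the WW and C2 domain family that acts in Hippo signalling. All 4 of its peaks called at both stages lay over coding exons. The gene was looked at peak by peak after these values were seen. Of its 12 peaks over coding exons, 10 were called higher in the *Sox2* line with the stage as a block, and the 12 differed by 0.69 to 2.41, with a median of 1.83. Of its 24 intron peaks none was called by limma, and they differed by -0.54 to 0.59, with 2 at an unadjusted p under 0.05. The peak over the UTR of the last exon differed by 0.12 (adjusted p = 0.819). Of 2 peaks near the start site, over exons annotated as neither coding nor UTR, 1 was lower (-1.15, adjusted p = 0.0167). The first coding-exon peak lay 90.2 kb from the start site, and from there on coding and intron peaks alternated, so that a coding-exon peak 115.593 kb from the start site was higher by 1.84 (adjusted p = 6.8e-06) and an intron peak 115.934 kb from it differed by 0.59 (adjusted p = 0.115). Among 819 genes with at least 3 peaks in exons, *Wwc2* was the only 1 with 3 or more exonic peaks called higher in the *Sox2* line, and *Patz1*, a zinc finger gene, the only 1 with 3 or more called lower.

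The mean rlog over the 12 coding-exon peaks of *Wwc2* was between 1.50 and 2.04 in early and between 1.18 and 1.76 in late *Pou5f1* Ctrl libraries. In *Sox2* Ctrl libraries it was 3.35, 3.79, 3.90 and 1.33 in early and 3.49, 3.70, 3.39 and 4.36 in late ICMs. The *Sox2* Ctrl early library of replicate 4 was at the level of the *Pou5f1* line, and the other 7 were above all 8 *Pou5f1* Ctrl libraries. *Sox2*-KO libraries were at 3.53, 3.59, 3.38 and 1.58 in early and 3.17, 3.83, 3.65 and 4.49 in late ICMs, and here too the library of replicate 4 in early ICMs was the low one. *Pou5f1*-KO ICM libraries lay between 1.29 and 2.00. The level also varied within the *Pou5f1* line before the ICM: late morula libraries of replicates 1, 2 and 3 were at 0.81, 2.89 and 2.15 in Ctrl and at 1.25, 2.68 and 1.93 in KO, so that same-numbered libraries were again alike. Of the 12 coding-exon peaks, 11 were called higher in the *Sox2* line between KO libraries, and none of the 24 intron peaks was called (3 at an unadjusted p under 0.05). The UTR peak was lower there (-1.37, adjusted p = 5.23e-06). The mean over the intron peaks was 3.06 ± 0.09 and 3.12 ± 0.26 in *Pou5f1* Ctrl and 3.12 ± 0.17 and 3.08 ± 0.14 (SD, n = 4) in *Sox2* Ctrl. Without the *Sox2* Ctrl early library of replicate 4, 11 of the 12 coding-exon peaks were called.

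**Figure D4:**
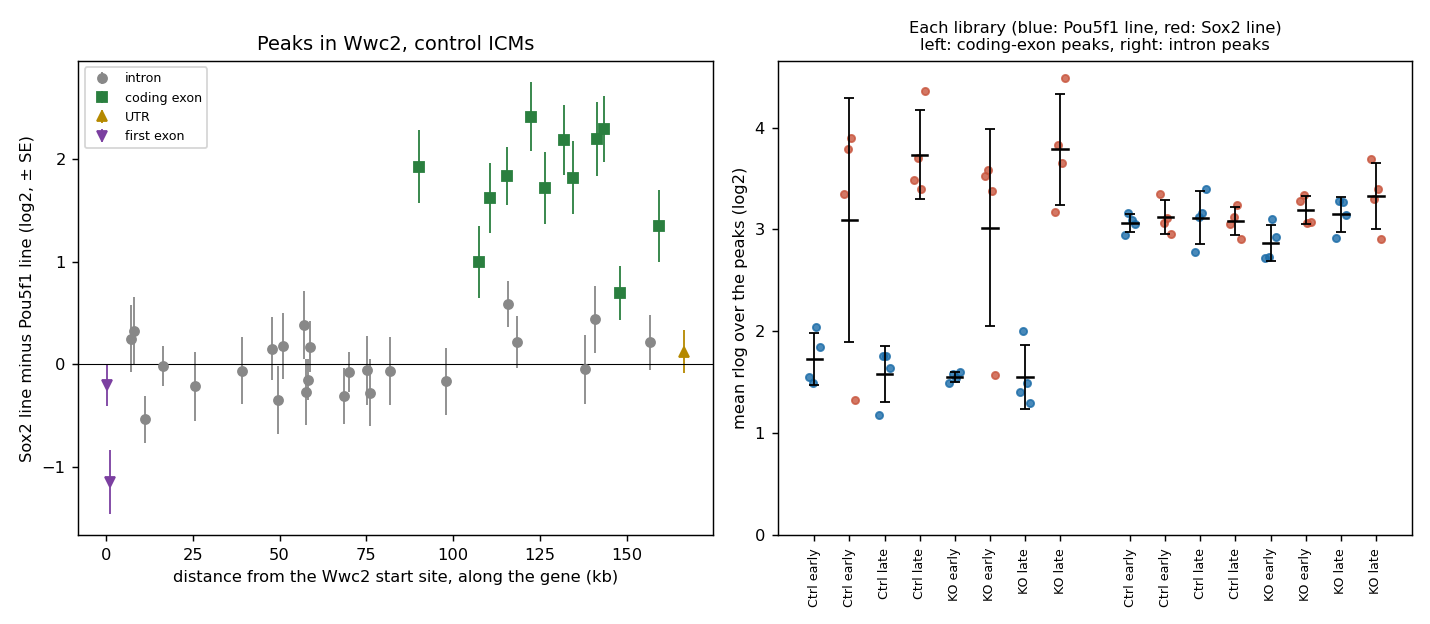
Left, line difference (*Sox2* line minus *Pou5f1* line, log2, with SE) at every *Wwc2* peak against the distance from the start site, with coding-exon peaks (green squares, median 1.83) above intron peaks (grey circles, none called). Points labelled first exon are peaks near the start site over exons annotated as neither coding nor UTR. Right, mean rlog over the 12 coding-exon and the 24 intron peaks in each ICM library (blue, *Pou5f1* line; red, *Sox2* line; bar, mean; whisker, SD of 4 libraries), where 1 Ctrl and 1 KO early library of the *Sox2* line are at the level of the *Pou5f1* line.

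Genes of pluripotency and signalling were read from lists chosen for this tissue, by the peaks within 10 kb of their start sites. Of 244 peaks near 24 naive pluripotency genes, 3 were called higher and 7 lower in the *Sox2* line, or 4.10% against 4.52% of all peaks, with a median difference of -0.08. The lower ones included the *Sox2* window and peaks at *Klf4* (-0.99 and -0.75), *Esrrb* (-1.10 and -0.94) and *Sall4* (-1.21), all factor genes of the pluripotent state, and the higher ones were the exonic *Pou5f1* peak and peaks at *Dppa4* (1.06) and *Zfp42* (0.58). These genes were named because their peaks were called. Copy number at the *Sox2* window and the exonic *Pou5f1* peak differs between the controls by design. The share of the list was near that of all peaks.

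Peaks of the LIF and STAT3 pathway, which supports the naive state, were read in the same way. LIF binds a receptor made of *Lifr* and *Il6st*, whose kinases activate STAT3. Of 108 peaks near 15 genes, 10 were called lower and 0 higher in limma, or 9.26% against 4.52% of all peaks, and 2 (1.85%) were higher and 25 (23.1%) lower at an unadjusted p under 0.05, as were 7.96% and 10.1% of all peaks. The median difference was -0.32, and it was -0.22 after centring within bins of GC content, where the same numbers were called. The called peaks were named after their values were seen: 5 lay at the receptor gene *Lifr* (-1.80 to -0.89), 1 at its ligand *Lif* (-1.15), 2 at *Gadd45g* (-1.43 and -1.09), 1 at *Socs3*, the feedback inhibitor (-1.03), and 1 at *Bcl3* (-0.90). The strongest, 6800 bp from a *Lifr* start site (chr15:7083715-7083914), was lower by a log2 difference of -1.80 ± 0.33 (adjusted p = 0.000132). None of the 10 was called at both stages, since each passed the threshold in at most 1 of them. Between KO libraries, 17 of the 108 peaks were called lower and 2 higher in the *Sox2* line, where 8.88% and 10.1% of all peaks were.

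Few of the peaks called at both stages lay at a start site. Of the 112 higher and 122 lower ones, 1.79% and 0% lay within 100 bp of a start site, against 7.77% of all peaks, and 15.2% and 9.02% lay within 1 kb, against 19.5%. Their median GC content was 47% and 46.2%, against 50% for all peaks, and 31.2% and 23.0% lay mostly in repeats, against 23.2%. At start sites in general, within 100 bp, 61 of 11846 peaks (0.515%) were called higher and 267 (2.25%) lower in the *Sox2* line, with a median difference of -0.17. After centring within bins of GC content these shares were 0.836% and 0.878%, and the median was -0.01, so the lean at start sites moved with GC content.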

How the data were processed

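ATAC-seq was performed by the authors on pooled ICMs. Reads were trimmed, mapped to mm10 with Bowtie2, freed of duplicates with Picard, kept where they mapped uniquely and shifted by strand for the transposase. Peaks were called with MACS2, merged over all groups and cut to 200 bp, and insertions were counted with bedtools. The deposited values are log2 values, made by the authors from those counts with the rlog transformation of DESeq2, which scales for depth and shrinks weak peaks toward their mean, so that their differences are understated. The counts and the depth were not used here. The deposited means per condition were not used. All columns were matched to a library by name, and 0 were left unmatched.

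The 16 Ctrl ICM libraries were fitted with limma 3.58.1 (R 4.3.3; lmFit, then eBayes with a trend), over all 152393 peaks, without a filter. One model had line and stage, another a mean per line and stage. KO ICM libraries were fitted alone in the same way. P-values were two-sided and adjusted over the whole set of peaks (Benjamini-Hochberg). The separation and chromosome X were tested by exact permutation within stages. The fitting code was first tested on simulated data. Libraries of a group are separate pools, and nothing in the labels ties them to separate litters, so p-values measure the spread between these pools.

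Genes, start sites and sequences were from GENCODE vM21 and the RefSeq copy of GRCm38, the build of mm10. Positions count from 1. Python 3.11.15, numpy 2.4.6, pandas 2.3.3 and scipy 1.17.1 were used. Named peaks were all peaks within 10 kb of *Pou5f1* and *Sox2*, the 12 largest rises and 12 largest falls among peaks called at both stages without overlap between lines, for each gene list up to 4 peaks called at both stages within 10 kb of a start site, and those in the 6 windows of 1 Mb with the highest share. The comparison, the lists and the words were chosen with earlier results of these data known, and other genes are named in the text as chosen after their values were seen. One item that the rule names is not reported here. Alternatives were a filter at the median rlog, quantile normalization, centring within 20 bins of GC content, an absolute difference of at least 1, a robust eBayes, no chromosome X, each library left out, all libraries in 1 fit, and the replicate number as a block. Quantile normalization and GC centring of the word classes were added after the data were seen.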

Additional observations from a re-analysis of the deposited data

Results flagged for a closer look

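In groups of 4 libraries, 1 library was far from the other 3 in 13 of 188 groups read, where chance gives about 1 in 20. In *Pou5f1* Ctrl early ICMs these were a low value of 1.01 at the *Pign* intron peak (group median 3.64), 3.04 at *5730507C01Rik* (median 0.907), 3.07 at the first-intron peak of *Pou5f1* (median 4.10), 2.81 near *Tcf7l2* (median 4.13) and 4.77 near *Syde2* (median 5.28). In *Pou5f1* Ctrl late ICMs it was 4.09 at the *Pou5f1* start site (median 5.11). In *Sox2* Ctrl early ICMs they were 2.52 at the peak 7727 bp upstream of *Sox2* (median 1.68) and 1.60 at the peak 2940 bp downstream of its start (median 2.61). In *Sox2* Ctrl late ICMs they were 2.36 near *Gadd45g* (median 4.43), 4.99 in *D830044D21Rik* (median 4.29), 3.45 in *Trim55* (median 2.86), 2.35 at the *Sox2* upstream window (median 3.14) and 3.04 in *Map3k7* (median 3.70). At the *Sox2* upstream window, *5730507C01Rik* and *Syde2* the line difference with the stage as a block was called with any library left out.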

How the results depend on the processing

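Peaks with a stage block numbered 4740 to 8042 when each library was left out, early ICM calls 628 to 1750, late ICM calls 703 to 3017, calls at both stages 126 to 273, KO calls 25448 to 28975 and changes between stages 0 to 34. The separation ran from 0.747 to 0.804 and the chromosome X difference, which never passed its test, from -0.0307 to 0.0177, with a positive sign (0.00234, 0.0177, 0.00279, 0.0169 and 0.0019) without *Pou5f1* Ctrl early replicate 3 or 4, *Pou5f1* Ctrl late replicate 4, *Sox2* Ctrl early replicate 1 or *Sox2* Ctrl late replicate 1. Early calls fell below 1375 by over 1.5 times without *Pou5f1* Ctrl early replicate 1, 2 or 3 (710, 663 and 628) or *Sox2* Ctrl early replicate 2 or 3 (683 and 817). Late calls fell so without *Pou5f1* Ctrl late replicate 2, 3 or 4 (1037, 703 and 763) or *Sox2* Ctrl late replicate 1, 2 or 4 (832, 803 and 1005). Calls at both stages fell so without *Pou5f1* Ctrl early replicate 2 or 3 (152 and 127), *Pou5f1* Ctrl late replicate 3 or 4 (126 and 132), *Sox2* Ctrl early replicate 2 (155) or *Sox2* Ctrl late replicate 2 or 4 (135 and 141). Changes between stages were called at 34 and 9 peaks without *Sox2* Ctrl early replicate 4 or 2, at 24 without *Pou5f1* Ctrl late replicate 1, at 4 without *Sox2* Ctrl late replicate 3 and at 1 without *Pou5f1* Ctrl early replicate 3. Fewer libraries were in these fits. Leaving out peaks under the median of the mean rlog gave 1267 late and 17476 KO calls, with fewer peaks tested, and an absolute difference of at least 1 gave 18628 KO calls. Without chromosome X, 1 peak changed between stages, and the cause was not tested. Quantile normalization gave 138 higher and 104 lower peaks called at both stages, against 112 and 122.

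The replicate block gave 5606 late calls and 370 at both stages. Numbers were not taken to pair the lines: same-numbered Ctrl libraries of the lines correlated in their deviations at -0.0985 to 0.104. In late ICMs all 4 values were positive, and 3 of the 4 exceeded those with any other number. All 50 named peaks called with the stage as a block kept their direction and their call in each of the 19 alternatives run on them. Peaks were named mainly for being called at both stages, so this was largely set by their choice. It does not describe the other called peaks. The depth is unknown, and 4 libraries per group limit the precision.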

Other observations

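Of 113 peaks near 17 primitive endoderm genes, 5 (4.42%) were called higher and 1 (0.885%) lower in the *Sox2* line, where 1.93% and 2.59% of all peaks were, and 4 and 1 after centring within bins of GC content. At an unadjusted p under 0.05 in limma, 12 (10.6%) were higher and 10 (8.85%) lower, where 7.96% and 10.1% of all peaks were. The median difference of the list was 0.03. The peaks called higher lay near *Sparc*, *Lamb1* (2 peaks) and *Amn*, genes of the matrix and of nutrient uptake by the endoderm, and near the factor gene *Sox7*, and the peak called lower near *Col4a1* and *Col4a2*. Of 137 trophectoderm peaks 2 (1.46%) were lower, at *Tfap2c* and *Cdx2*, and of 210 FGF and ERK peaks 2 (0.952%) were higher and 6 (2.86%) lower. The lower ones included *Dusp6* and *Spry4*, feedback inhibitors of the pathway (-1.04 and -1.10), but their share was near the 2.59% of all peaks. After centring within bins of GC content, 1 trophectoderm peak was lower, and 4 FGF and ERK peaks were higher and 5 lower. The genes of these lists were named after their values were seen.

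Of 178 peaks near imprinted genes, 5 (2.81%) were called lower and 0 higher in limma, where 2.59% and 1.93% of all peaks were. After centring within bins of GC content, 2 were called lower. At an unadjusted p under 0.05, 3 (1.69%) were higher and 15 (8.43%) lower, as were 7.96% and 10.1% of all peaks. Of 96 peaks near genes of the major histocompatibility complex, 3 were called (3.1%). Of 1599 near zinc finger protein genes 70 were called, 28 higher and 42 lower (4.38%). Of 596 near olfactory and vomeronasal receptor genes, 12 were higher and 14 lower (4.36%). These shares were near or below the 4.52% of all peaks. Those called at both stages in these lists lay at *Zfp37* (1.39), *Zfp961* (1.20) and *Vmn1r210* (1.86). None of 7 peaks near *Acr*, *Zp3* and *Pgk1*, whose promoters are used in transgenes of these lines, was called (1 at an unadjusted p under 0.05).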
